A study of Mus musculus with 6 samples.

Results

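Microglia, the resident macrophages of the brain, and other tissue macrophages are recognised by a small set of receptors and intracellular proteins, and 9 genes that encode such proteins are described here: Trem2, Tyrobp, Csf1r, Cx3cr1, Aif1, Itgam, Spi1, Cd68 and Fcgr3. They were chosen by name, and every probe that the array's platform table names for one of them, ignoring case, was taken. Of the 9 genes, 7 had a named probe, 1 probe each, among 17742 named genes on the array. Tyrobp and Spi1 are absent under those symbols. A probe named SFPI1, an older symbol of Spi1, lies outside that choice and is given separately.

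The cells were BV2, an immortalised mouse microglial cell line and therefore 1 line rather than primary microglia, used at passages 3 to 8. They were kept for 1 h without adenine (control, 2 arrays), with a lower dose (2 arrays) or with a higher dose (2 arrays). Adenine is a purine base, one of the building blocks of nucleotides. The labels conflict on the doses, with 20 and 80 µM in the titles and treatment protocol and 80 and 250 µM in the characteristics, so only their order is used. Cy5-labelled cDNA was read on single-colour arrays of 26423 probes, and intensity is given here in scanner units after quantile normalization, which makes the distribution of values equal on every array. Changes are taken between arrays for 1 probe. Levels of different probes are used only to tell bright from dim probes and in sums over markers. Where the 2 arrays of a group do not come from separate cultures, which the titles do not state, the errors and p-values measure only the spread between these arrays. RNA came from whole cultures, so a change in the share of cells that carry a transcript and a change in its amount per cell cannot be told apart.

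As background, TREM2 is a surface receptor for lipids and lipoproteins that signals through the adaptor TYROBP (DAP12) and the kinase SYK. CSF1R receives the survival factors CSF1 and IL-34, and CX3CR1 receives the neuronal chemokine fractalkine. FCGR3 binds the Fc part of IgG and ITGAM (CD11b) is the alpha chain of complement receptor 3, both used in phagocytosis. AIF1 (Iba1) is an actin-bundling protein widely used to stain microglia, CD68 is a glycoprotein of the lysosome and endosome, and SPI1 (PU.1) is the transcription factor on which the macrophage lineage depends.

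At the higher dose Aif1, Itgam and Fcgr3 rose against control, and Trem2 also rose when the higher dose was set against the lower dose. None of the 7 was called lower in limma in any of the 3 comparisons. Csf1r and Cx3cr1, the 2 receptors of the set for growth factor and chemokine, and Cd68 did not pass the test, and at the lower dose 0 of the 7 passed. A probe was called at an adjusted p under 0.05 in limma, with p adjusted over all 26423 probes. Against control the higher dose raised 3 of 7 members, 42.9%, where 5.55% of all probes were called higher and 10.6% in either direction. Among the 13211 probes brighter than the median probe, to which 6 of the 7 members belong, 9.17% were called higher and 7.8% lower. The members' median log2 change was 0.77, and that of all probes was −0.01.

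All arrays of the higher dose lay above all control arrays for 5 members, below them for Csf1r, and overlapped them for Cx3cr1. Over all probes, 60.1% did not overlap in that comparison, 28.8% upward and 31.3% downward. Of the 6 members brighter than the median probe (142.2 units on average), the one outside is Cx3cr1, and all 7 read 50 units or more on at least 2 arrays.

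**Figure D1:**
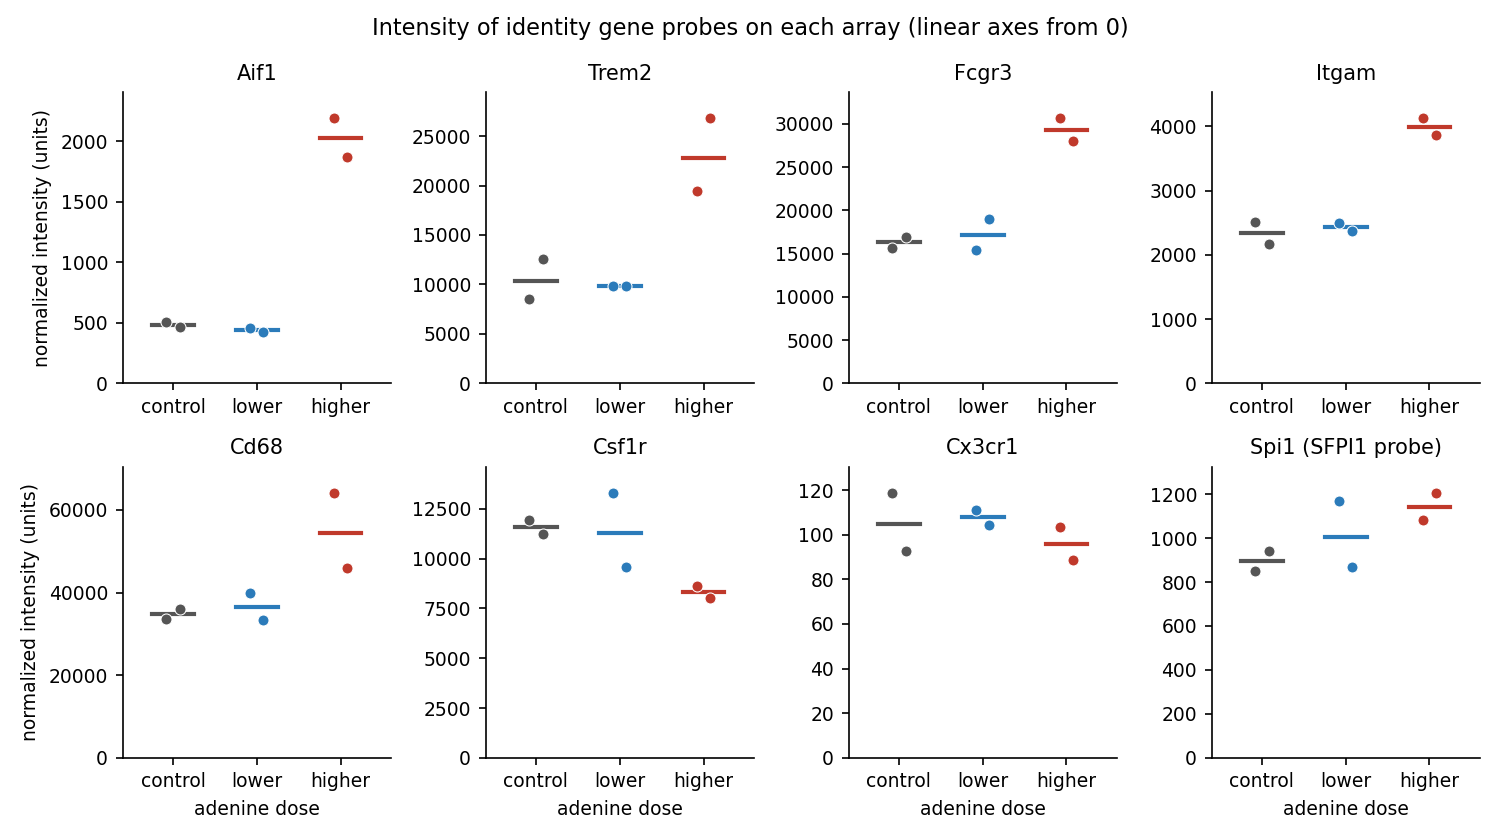
Normalized intensity in scanner units (linear axes from 0, 1 scale per panel) of the 7 members and of the SFPI1 probe on each of the 6 arrays, with dots for arrays and bars for the geometric mean of the 2 arrays of a group. The higher-dose arrays of Aif1 stand at 1874 and 2188 units, against 426 to 504 units on the other 4 arrays, and those of Cx3cr1 overlap the controls.

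PU.1 is known to bind purine-rich sequences around a GAGGAA core in the promoters of macrophage genes. The 250 bases before the transcription start of 4 members that rose in at least 1 comparison are shown so that this core can be seen beside their values. Sequences are RefSeq's, build GRCm38.p6, in the direction of transcription, and capitals mark GAGGAA or its reverse complement TTCCTC:
Aif1 (chr17:35176053-35176302, minus strand): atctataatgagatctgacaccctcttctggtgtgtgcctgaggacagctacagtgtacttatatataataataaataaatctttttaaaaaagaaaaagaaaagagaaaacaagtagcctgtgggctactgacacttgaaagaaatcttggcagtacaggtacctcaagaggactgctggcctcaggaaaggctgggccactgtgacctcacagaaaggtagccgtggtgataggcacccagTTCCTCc
Fcgr3 (chr1:171059404-171059653, minus strand): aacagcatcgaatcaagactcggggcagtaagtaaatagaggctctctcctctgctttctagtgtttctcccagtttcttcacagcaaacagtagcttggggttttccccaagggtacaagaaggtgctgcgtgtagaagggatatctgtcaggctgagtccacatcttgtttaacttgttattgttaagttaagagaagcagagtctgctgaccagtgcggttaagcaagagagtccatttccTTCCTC
Itgam (chr7:128062390-128062639, plus strand): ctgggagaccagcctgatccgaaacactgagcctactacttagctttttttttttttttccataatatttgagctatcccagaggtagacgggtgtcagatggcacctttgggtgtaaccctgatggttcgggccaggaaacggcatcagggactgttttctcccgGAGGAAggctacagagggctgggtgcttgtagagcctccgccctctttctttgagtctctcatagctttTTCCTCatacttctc
Trem2 (chr17:48346151-48346400, plus strand): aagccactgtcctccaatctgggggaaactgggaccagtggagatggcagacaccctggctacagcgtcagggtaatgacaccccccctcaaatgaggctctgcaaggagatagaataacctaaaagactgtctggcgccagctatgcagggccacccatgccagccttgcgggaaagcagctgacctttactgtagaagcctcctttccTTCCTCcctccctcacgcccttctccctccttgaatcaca
Windows of 6 of the 9 genes were used, and for Fcgr3 the first of its entries was taken. Entries on a held-out chromosome were not read for members, so a gene without a window here may still have an entry. The core was found on either strand in 5 of those 6 windows, in Trem2, Aif1, Itgam, Cd68 and Fcgr3, and in 23.3% of the 32851 windows of the same length in the table, in which a gene may have several. The Itgam window held 2 copies, and 3.54% of all windows held 2 or more. The window of Cx3cr1 held 0. A match is a description of letters and not a measured site.

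Trem2, the lipid receptor, read 8522 and 12558 units in the controls, 9855 and 9810 units at the lower dose and 19452 and 26781 units at the higher dose. Both higher-dose arrays lay above the other 4, while the 2 controls differed from each other more than the 2 lower-dose arrays did. Against control the level was 2.21-fold at the higher dose (log2 1.14 ± 0.26, SE, n = 2 per group, adjusted p = 0.0567), which missed the threshold. Against the lower dose Trem2 rose 2.32-fold (log2 1.21 ± 0.26, adjusted p = 0.044). The first value turned to a call on values as deposited (log2 1.44, adjusted p = 0.045) and with arrays scaled to equal medians (1.37, adjusted p = 0.0457). It also became a call among the brighter probes (adjusted p = 0.0018), with a prior that follows intensity (0.0125) and with log2(value + 16) (0.0143). So it did with at least 50 units in 2 arrays (0.0163) and with weights per array (0.0462). It stayed uncalled with the replicate number as a block (0.0652), with only the groups compared (0.0958) and with a trend on gene length removed (0.0795). The second was lost with that trend removed (0.95, adjusted p = 0.0677) and with weights per array (adjusted p = 0.0538). It was also lost with the block (adjusted p = 0.0539) and with only the groups compared (adjusted p = 0.0609).

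Its partner Tyrobp was not measured under that symbol, and Syk was not named among the probes either. Of 38 other genes of this receptor complex and its signalling, 31 were measured. At the higher dose 2 rose and 7 fell against control, 6.45% and 22.6% of those measured, where 5.55% of all probes were called higher and 5.06% lower. Of the 31, 25 lay above the median probe, where 9.17% of probes were called higher and 7.8% lower. The list's median log2 change was −0.38. On values as deposited, 1 rose and 4 fell. Hcst, the adaptor DAP10 that pairs with similar receptors, read 340 and 315 units in the controls, 306 and 349 at the lower dose and 1058 and 922 at the higher dose. It rose with a log2 change of 1.59 ± 0.17 (adjusted p = 0.0198), and its second probe also rose (1.32, adjusted p = 0.0294). The receptor Cd300lb, which also signals through DAP12, fell (−1.30 ± 0.22, adjusted p = 0.0311). Card9, an adaptor downstream of SYK, fell (−1.29 ± 0.21, adjusted p = 0.0296), as did the phosphoinositide 3-kinase subunit Pik3r1 (−0.81 ± 0.15, adjusted p = 0.035). The others that fell were Btk, Plcg2, Grb2 and Clec5a, and Treml2 also rose. Clec5a was dim, under the median probe, and passed narrowly (−1.04 ± 0.22, adjusted p = 0.0496). The kinase Btk went from 10931 and 14753 units without adenine to 4988 and 6575 units at the higher dose. The genes that fell thus include 2 receptors, Cd300lb and Clec5a, beside the kinase, lipase and adaptors. These lists were written with earlier results of these data known, so their counts describe them and are no independent evidence.

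Fcgr3, the low-affinity IgG receptor, read 15665 and 16929 units in the controls, 15395 and 19000 units at the lower dose and 30620 and 27961 units at the higher dose. The higher-dose arrays stood apart from the other 4. It rose 1.80-fold against control (log2 0.85 ± 0.18, adjusted p = 0.0458) and 1.71-fold against the lower dose (0.77 ± 0.18, adjusted p = 0.0483). Both calls were lost in limma with the replicate number as a block (adjusted p = 0.0799 and 0.0803). The same held with only the groups compared (0.056 and 0.0889). The probe's letters were not used here, and Fcgr2b resembles Fcgr3 in sequence, so how far signal is shared between them was not tested. The Fcgr2b probe that is brightest on average read 4123 and 3248 units without adenine and 4880 and 4341 units at the higher dose (log2 0.33 ± 0.20, adjusted p = 0.354).

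All 12 listed Fc receptors and associated chains were measured, with a median log2 change of 0.16. At the higher dose 2 rose and 0 fell in limma, 16.7% higher against 5.55% of all probes. Above the median probe, where 7 of the 12 lie, 9.17% of probes were called higher. One is Fcer1g, the signalling chain that FCGR3 needs at the cell surface. It read 17882 and 18953 units in the controls, 21493 and 22925 at the lower dose and 44919 and 39620 at the higher dose (log2 1.20 ± 0.15, adjusted p = 0.0208). The other is Fcgr4, a receptor for IgG2 subclasses, which went from 2707 and 2243 units without adenine to 7195 and 6421 units (1.46 ± 0.19, adjusted p = 0.0215). The high-affinity receptor Fcgr1 did not pass (0.22 ± 0.19, adjusted p = 0.49), nor did Trim21, the antibody receptor of the cytosol (−0.63 ± 0.16, adjusted p = 0.0663). Fcgr3 and the chain it signals through were thus both higher.

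Itgam, the integrin CD11b, read 2512 and 2175 units in the controls, 2492 and 2372 units at the lower dose and 4122 and 3863 units at the higher dose. The control and lower-dose arrays overlapped and the higher-dose arrays lay above them. The rise was 1.71-fold against control (log2 0.77 ± 0.16, adjusted p = 0.0435) and 1.64-fold against the lower dose (0.71 ± 0.16, adjusted p = 0.045). The call against control was lost on values as deposited (0.77, adjusted p = 0.0555) and at equal medians (0.70, adjusted p = 0.0586). The call between the doses was lost on values as deposited (0.54, adjusted p = 0.088). In limma with the replicate number as a block both calls were lost (adjusted p = 0.0699 against control, 0.0684 between the doses). Both were also lost with only the groups compared (0.0673 and 0.0756).

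Itgb2, the beta chain (CD18) with which ITGAM forms complement receptor 3, did not rise with it. It read 5601 and 5498 units in the controls, 6150 and 4760 at the lower dose and 3810 and 3476 at the higher dose (log2 −0.61 ± 0.18 against control, adjusted p = 0.101). Both higher-dose arrays lay below the other 4, opposite to Itgam, although this difference from control did not pass the test. Of the 20 integrin genes and activators of integrins listed, all measured, Icam2, an adhesion ligand of these integrins, rose (1.40 ± 0.19, adjusted p = 0.0215) and 0 fell in limma. The list's median log2 change was −0.20. Of the list 5% was called higher and 0% lower, against 5.55% and 5.06% of all probes. Itgax, the alpha chain CD11c, stood at 0.71 ± 0.17 (adjusted p = 0.0609), Apbb1ip, an adaptor of integrin activation, at 0.70 ± 0.16 (adjusted p = 0.0527) and Rassf5 at −0.69 ± 0.17 (adjusted p = 0.0597).

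Csf1r, the receptor of CSF1, read 11945 and 11257 units in the controls, 13290 and 9577 units at the lower dose and 8616 and 8017 units at the higher dose. The higher-dose arrays were the lowest of the 6, but the lower-dose arrays spread over a wide range. The log2 change was −0.48 ± 0.21 against control (95% interval −1.004 to 0.043, adjusted p = 0.202) and −0.44 ± 0.21 against the lower dose (adjusted p = 0.216). Against control it was −0.26 on values as deposited and −0.33 at equal medians, so its size moved with the scaling by more than 1.5 times on the former.

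Among 25 ligands, relatives and signalling genes of CSF1R, 23 were measured, of which 1 rose and 1 fell (median log2 change 0.10), and 0 rose and 2 fell in limma on values as deposited. After normalization 4.35% were thus higher and 4.35% lower, near the 5.55% and 5.06% of all probes. The ligands did not pass. Csf1 read 3679 and 4052 units without adenine and 3658 and 3483 units at the higher dose (−0.11 ± 0.16, adjusted p = 0.698), and Il34, dim on every array, stood at 0.06 ± 0.16 (adjusted p = 0.857). Cbl, the ubiquitin ligase that marks activated CSF1R for degradation, fell from 3039 and 2534 units to 584 and 513 units. The gene that rose, Csf2, read 9.5 and 12.7 units without adenine and 27 and 35 units at the higher dose, near the bottom of the scale. Flt3, a related receptor, was also dim (−0.87 ± 0.19, adjusted p = 0.0512). The receptor chain Csf2ra stood at 0.83 ± 0.19 against control (adjusted p = 0.0575) and rose against the lower dose (1.50 ± 0.19, adjusted p = 0.0199).

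Cx3cr1, the fractalkine receptor, was the only member under the median probe of the arrays. It read 119 and 93 units in the controls, 111 and 104 units at the lower dose and 104 and 89 units at the higher dose, and the higher-dose and control arrays overlapped. The log2 change was −0.13 ± 0.19 against control (95% interval −0.62 to 0.36, adjusted p = 0.702). Its ligand Cx3cl1, made by neurons, spread from 58 to 188 units between the 2 controls and did not pass (0.95 ± 0.61, adjusted p = 0.372).

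Of 14 listed genes of this axis and other chemoattractant receptors, 13 were measured, 2 rose and 0 fell in limma (median log2 change 0.13). The share higher was 15.4%, against 5.55% of all probes, and 5.06% of all probes were called lower. Above the median probe, where 9 of the 13 lie, 9.17% of probes were called higher and 7.8% lower. C3ar1, the receptor of the complement fragment C3a, rose (1.71 ± 0.30, adjusted p = 0.0319). Gnai2, a G protein subunit that couples such receptors, also rose (1.53 ± 0.23, adjusted p = 0.0257). The chemerin receptor Cmklr1 (−0.63 ± 0.16, adjusted p = 0.0707) and the chemokine receptor Ccr1 (−1.28 ± 0.34, adjusted p = 0.076), both dim, did not pass.

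Aif1, the actin-bundling protein Iba1, had the largest change of the 7. It read 504 and 464 units in the controls, 454 and 426 units at the lower dose and 2188 and 1874 units at the higher dose. Both lower-dose arrays lay just below both controls, by less than the test could call (log2 −0.14 ± 0.16, adjusted p = 0.863), while the higher-dose arrays lay far above. It rose 4.19-fold against control (log2 2.07 ± 0.16, 95% interval 1.65 to 2.48, adjusted p = 0.0167) and 4.61-fold against the lower dose (2.20 ± 0.16, adjusted p = 0.0171). By size of change in either direction, 1.12% of all probes moved further from control. In limma with the replicate number as a block, Aif1 had adjusted p = 0.0517 against control and 0.0469 between the doses. With only the groups compared they were 0.0428 and 0.0515.

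Of 28 actin and phagocytosis genes listed with Aif1, 26 were measured, 1 rose and 3 fell, and the median log2 change was −0.06. These were 3.85% and 11.5% of those measured, against 5.55% and 5.06% of all probes. Above the median probe, where 25 of the 26 lie, 9.17% of probes were called higher and 7.8% lower. On values as deposited, 1 rose and 1 fell and the median was 0.03. Aif1l, the paralogue of Aif1, read 138 and 151 units without adenine and 151 and 148 units at the higher dose (0.06 ± 0.26, adjusted p = 0.914). Genes that fell were Actr3 of the Arp2/3 complex, which nucleates branched actin (−1.10 ± 0.16, adjusted p = 0.0255), the small GTPase Cdc42 (−1.02 ± 0.16, adjusted p = 0.027) and the leukocyte plastin Lcp1, which like AIF1 bundles actin (−1.005 ± 0.218, adjusted p = 0.0496). Tmsb10, a thymosin that binds actin monomers, rose by its brightest probe (2.39 ± 0.25, adjusted p = 0.0196). Its other probes read 0.91 (adjusted p = 0.0321) and 0.85 (adjusted p = 0.111).

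Cd68, the lysosomal glycoprotein, read 33604 and 36127 units in the controls, 39785 and 33391 units at the lower dose and 64073 and 46027 units at the higher dose. The higher-dose arrays were the 2 highest but differed from each other by more than the other groups spanned. As deposited, the first of them read 65484, near the top of the scanner's range, so 1 of the 2 arrays gives a value that may be capped. The log2 change was 0.64 ± 0.22 against control (adjusted p = 0.13), and 0.40 without higher dose replicate 1. When only probes above the median probe were tested, Cd68 was called against control (adjusted p = 0.0208) and between the doses (adjusted p = 0.0302). Under the other alternatives it was not called. Cd68 spans 1.96 kb in the RefSeq annotation, and short genes tended to be higher at this dose. With that trend removed, its change was 0.23 (adjusted p = 0.498).

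Among 25 relatives of CD68 and scavenger receptors, 24 were measured, 2 rose and 1 fell (median log2 change 0.02). That is 8.33% higher and 4.17% lower, where all probes gave 5.55% and 5.06%. Marco, a scavenger receptor for bacteria and particles, went from 127 and 91 units without adenine to 369 and 362 units (1.76 ± 0.21, adjusted p = 0.0204). Cd5l, a protein secreted by macrophages, also rose (1.53 ± 0.16, adjusted p = 0.0199). Mertk, the receptor through which macrophages take up apoptotic cells, fell from 1030 and 970 units to 351 and 358 units (−1.50 ± 0.17, adjusted p = 0.0199). Lamp3 was dim (−0.71 ± 0.18, adjusted p = 0.067). The lysosomal membrane proteins Lamp1 and Lamp2, of the same family as CD68, did not pass (−0.33 ± 0.18, adjusted p = 0.307, and −0.69 ± 0.19, adjusted p = 0.0855).

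Spi1 was read by 1 probe, under its older symbol. It gave 850 and 939 units in the controls, 1168 and 868 units at the lower dose and 1082 and 1205 units at the higher dose. The higher-dose arrays lay above the controls and overlapped the lower dose (log2 0.35 ± 0.20 against control, 95% interval −0.16 to 0.87, adjusted p = 0.324). Of 46 transcription factors listed as acting with PU.1 in myeloid cells, 43 were measured, 3 rose and 3 fell (median log2 change −0.04). Each count is 6.98% of those measured, where 5.55% of all probes were called higher and 5.06% lower. Mef2c, a factor of the microglial programme, fell by its brightest probe (−1.87 ± 0.23, adjusted p = 0.0204), while a second, dimmer probe stood at −0.68 (adjusted p = 0.0974). The ETS factor Fli1 fell (−0.96 ± 0.17, adjusted p = 0.0348), as did Usf1. Batf3, a factor of dendritic cell development, rose (1.15 ± 0.19, adjusted p = 0.0286), as did the inhibitor of basic helix-loop-helix factors Id3 (1.06 ± 0.16, adjusted p = 0.0258) and the granulocyte factor Cebpe. Irf8, a partner of PU.1, did not pass (−0.29 ± 0.18, adjusted p = 0.371), nor did Cebpa (0.11 ± 0.26, adjusted p = 0.824) or Runx1 (−0.17 ± 0.20, adjusted p = 0.631).

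**Figure D2:**
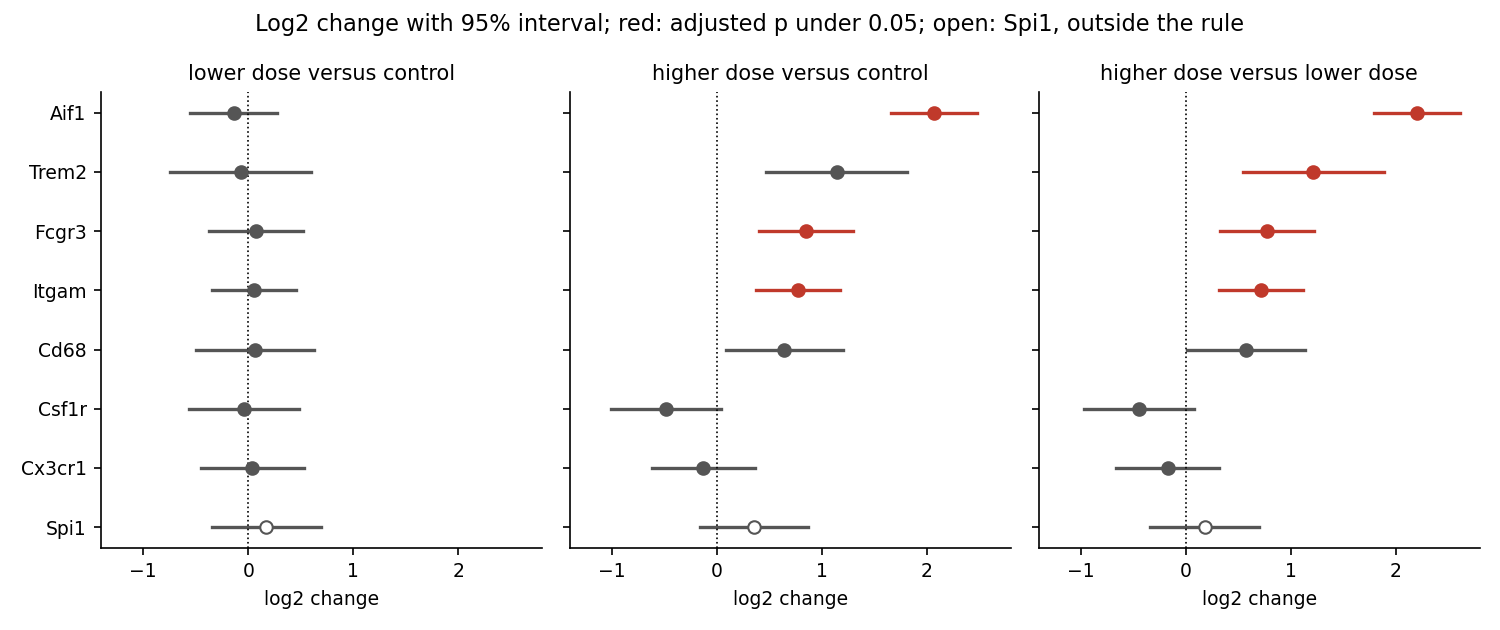
Log2 change (x axis) with its 95% interval for the 7 members and for Spi1 by its SFPI1 probe (rows) in the 3 comparisons, from the limma fit to all 6 arrays, with red for an adjusted p under 0.05. At the higher dose Aif1 stands at 2.07, and the intervals of Csf1r and Cx3cr1 include 0.

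At the lower dose the members stood close to the controls. Their log2 changes ran from −0.14 for Aif1 to 0.07 for Fcgr3, their median was 0.04, and 0 of 7 were called in limma, where 0.0114% of all probes were called, 0.00757% higher and 0.00378% lower. Aif1 was the 1 member whose lower-dose and control arrays did not overlap, which 35% of all probes showed, 18.5% upward and 16.6% downward. None of the 7 had an unadjusted p under 0.05, the smallest being 0.43 for Aif1. The 95% interval of the change was −0.74 to 0.60 for Trem2 and −0.34 to 0.46 for Itgam, so changes within those bounds remain compatible with these arrays. Between the doses, 4 of 7 members were higher at the higher dose, 57.1%, where 6.78% of all probes were called higher, 6.95% lower and 13.7% in either direction, and 11.1% of the brighter probes were called higher. The arrays of the 2 doses did not overlap for any of the 7, with 5 higher and 2 (Csf1r and Cx3cr1) lower at the higher dose, against 59.2% of all probes, 28.5% upward and 30.7% downward. On values as deposited, 27.5% of the calls between the doses were higher, against 49.4% after normalization. This comparison and the one against control share the higher-dose arrays, so they are not separate evidence.

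Other markers of microglia and macrophages moved in both directions at the higher dose. Of 60 such genes, 50 were measured, 10 rose and 2 fell (20% and 4% of those measured, median log2 change 0.10). The shares of all probes were 5.55% and 5.06%, and those above the median probe, where 39 of the 50 lie, 9.17% and 7.8%. Ms4a7, a membrane protein of macrophages, read 71 and 55 units without adenine and 769 and 858 units at the higher dose. The lectin receptor Clec4d rose from 2861 and 2975 units to 17588 and 16763 units (2.56 ± 0.14, adjusted p = 0.0118), Ms4a6d rose by both of its probes (2.44 and 2.24), and Cd52, a glycoprotein of leukocytes, rose (1.83 ± 0.15, adjusted p = 0.0184). Cd86, a ligand for T cell costimulation, fell (−1.35 ± 0.18, adjusted p = 0.0215), as did Unc93b1. The pan-leukocyte phosphatase Ptprc (−0.14 ± 0.20, adjusted p = 0.699), the F4/80 antigen Adgre1 (−0.49 ± 0.18, adjusted p = 0.151) and the microglial marker Tmem119 (−0.49 ± 0.21, adjusted p = 0.212) did not pass.

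Of 40 genes known to be raised in disease-associated microglia, a state that TREM2 supports in mouse models, 38 were measured, 10 rose and 0 fell in limma (26.3% higher, median log2 change 0.39). Over all probes 5.55% were called higher, and 9.17% of those above the median probe, where 35 of the 38 lie. Of the apolipoproteins on the list, Apoe went from a mean of 6278 to 20920 units (1.74 ± 0.19, adjusted p = 0.0199), and Apoc1 rose as well (2.94 ± 0.18, adjusted p = 0.012). The ferritin light chain Ftl1 (1.41 ± 0.14, adjusted p = 0.019), the chemokine Ccl2, the tetraspanin Cd63, Cd74, the mitochondrial protein Tspo, Lgals3, Cst7 and Timp2 made up the rest.

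**Figure D3:**
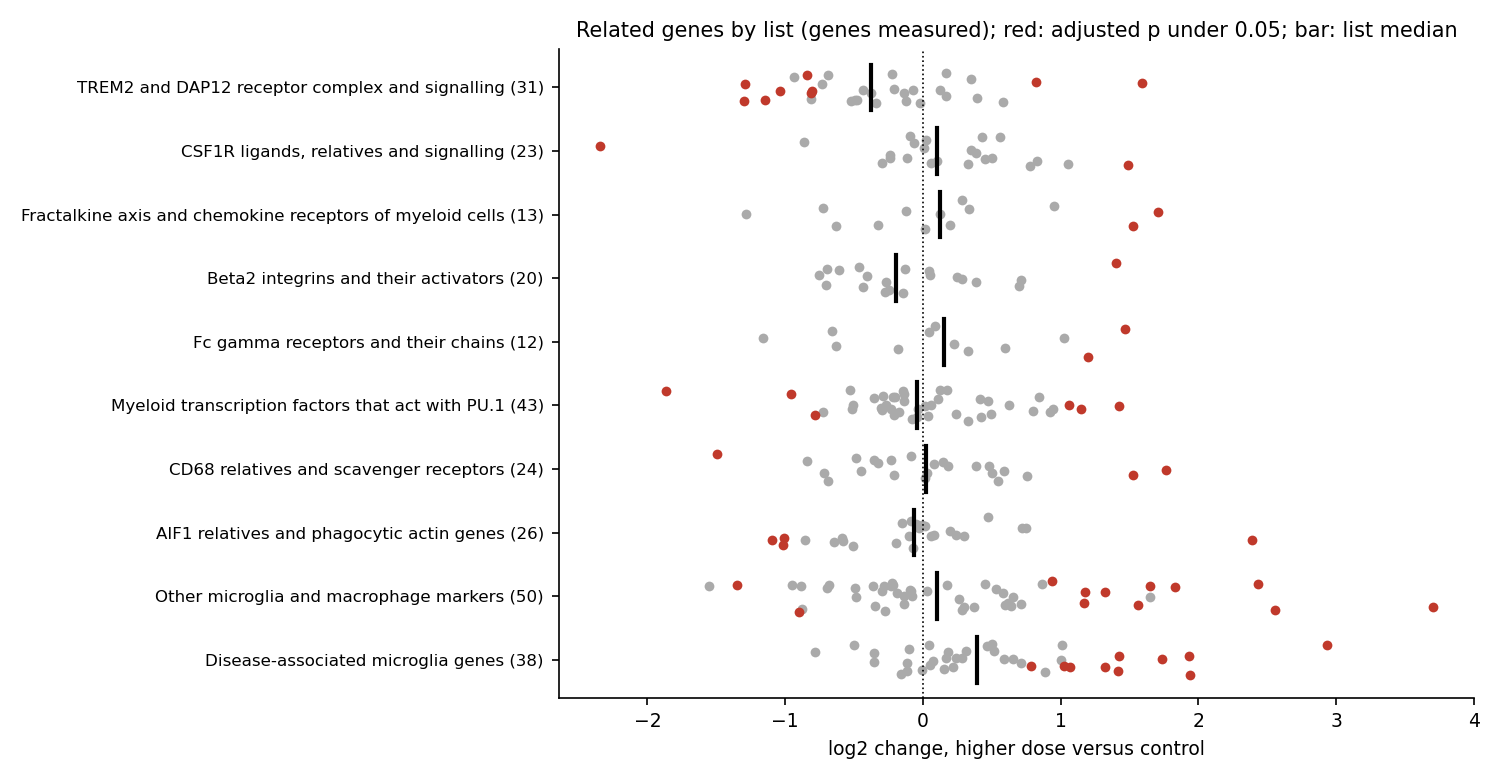
Log2 change at the higher dose against control (x axis) of each measured gene of the 10 related lists (rows, number of genes in brackets), by its brightest probe, with red for an adjusted p under 0.05 and a bar at the list median. The medians run from −0.38 for the genes of TREM2 and DAP12 signalling to 0.39 for the genes of disease-associated microglia.

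By likeness of pattern over the 6 arrays, 2 genes were named per member from about 10286 searched. Since the arrays form 3 groups, many genes reach a high Pearson's r, and it is given as a description. Aif1 was most like Hebp1, a haem-binding protein (r = 0.9996), and Csnk2b, a subunit of casein kinase 2 (r = 0.9987), with 135 genes above 0.99. Itgam was most like Lamtor2 (r = 0.9997) and Rbp4 (r = 0.9993), with 111 above 0.99, and Fcgr3 was most like Ang (r = 0.998) and Jtb (r = 0.9972), with 37. For Trem2 they were Tmed1 (r = 0.9991) and Pdzd11 (r = 0.9985), with 29, and for Csf1r Pdcd10 (r = 0.9974) and Rbms1 (r = 0.9929), with 5. Cd68, nearest to Uqcc3 (r = 0.9753) and Plekhh2 (r = 0.9746), and Cx3cr1, nearest to Zfp111 (r = 0.9851) and Bhlha9 (r = 0.9783), had 0 genes above 0.99.

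Markers of other cell types gave these values beside the members' rise. At the higher dose 0 of 9 astrocyte, 9 neuron, 9 oligodendrocyte, 10 endothelial, 9 fibroblast and 11 lymphocyte markers passed in limma. Over all probes 10.6% were called in either direction. In the order given, 2, 4, 7, 6, 0 and 4 of these markers lay above the median probe, so dim signal limits these counts. Of 9 granulocyte and mast cell markers 1, the neutrophil protease Prtn3, rose by 1.43 ± 0.18 (adjusted p = 0.0204). The neutrophil genes S100a8 and S100a9 read 5.7 to 32.5 units on all arrays. The summed intensity of the granulocyte and mast cell markers was 1475 to 1509 units in the controls, 1564 to 1804 at the lower dose and 2112 to 2250 at the higher dose, and 3 of these 9 were above the median probe. From the controls to the higher dose, the sums went from 3985 to 4260 units to 4536 to 4996 units for oligodendrocyte markers, whose median log2 change was 0.46, and from 1276 to 1415 units to 1645 to 1711 units for lymphocyte markers (0.25). Neuron markers summed to 1208 to 1260 and 1303 to 1322 units, endothelial markers to 8428 to 8688 and 8785 to 9539 units, and astrocyte markers to 14270 to 18810 and 13130 to 14040 units. Of these 6 sums, 5 were higher on both higher-dose arrays than on both controls, and that of the astrocyte markers was lower. Fibroblast markers overlapped, at 256.5 to 281 and 274.2 to 298.2 units. Of all single probes, 28.8% lay above and 31.3% below the controls in this way. At the lower dose the neuron (1335 to 1428) and endothelial sums (9726 to 9771) were above both higher-dose arrays. The oligodendrocyte (3776 to 3969) and lymphocyte sums (1220 to 1249) were below both controls there. The astrocyte (13260 to 16240) and fibroblast sums (234.7 to 303.2) overlapped the controls. The cultures were of the BV2 line, and a part of other cells in the members' changes was not tested.

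Gene length moved with the higher dose. Across 10269 genes brighter than the median probe, which are not independent replicates, the change against control and the genomic span of the gene had a Spearman's rho of −0.326, against 0.0607 at the lower dose. The median span of those genes was 21.5 kb, that of Trem2 is 5.88, of Aif1 5.10, of Fcgr3 14.75, of Itgam 55.85, of Csf1r 25.57 and of Cx3cr1 19.61 kb. With the trend removed, the changes were 1.81 for Aif1 (adjusted p = 0.0141), 1.04 for Itgam (adjusted p = 0.0208), 0.85 for Fcgr3 (adjusted p = 0.0375), 0.92 for Trem2 (adjusted p = 0.0795) and −0.32 for Csf1r (adjusted p = 0.329). The calls of Aif1, Itgam and Fcgr3 were therefore made with and without this trend.

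The calls did not withstand the loss of 1 array, with the exception of Aif1 against control without a lower-dose array. Aif1 against control had adjusted p = 0.107 and 0.0983 when either control was left out, 0.106 and 0.104 when either higher-dose array was left out, and 0.0428 without either lower-dose array, while its log2 change stayed between 1.95 and 2.18. Itgam and Fcgr3 lost the call without any 1 array, with adjusted p from 0.0673 to 0.199 and from 0.056 to 0.204. Their log2 changes stayed between 0.67 and 0.88 and between 0.78 and 0.91. The 4 calls between the doses were also lost without any 1 array, with adjusted p from 0.0515 to 0.0972 for Aif1 and from 0.0609 to 0.18 for Trem2. Each such fit has fewer residual degrees of freedom than the 3 of the full fit, and over all probes the count of 2803 called against control was 5 to 28 without 1 control or higher-dose array.

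**Figure D4:**
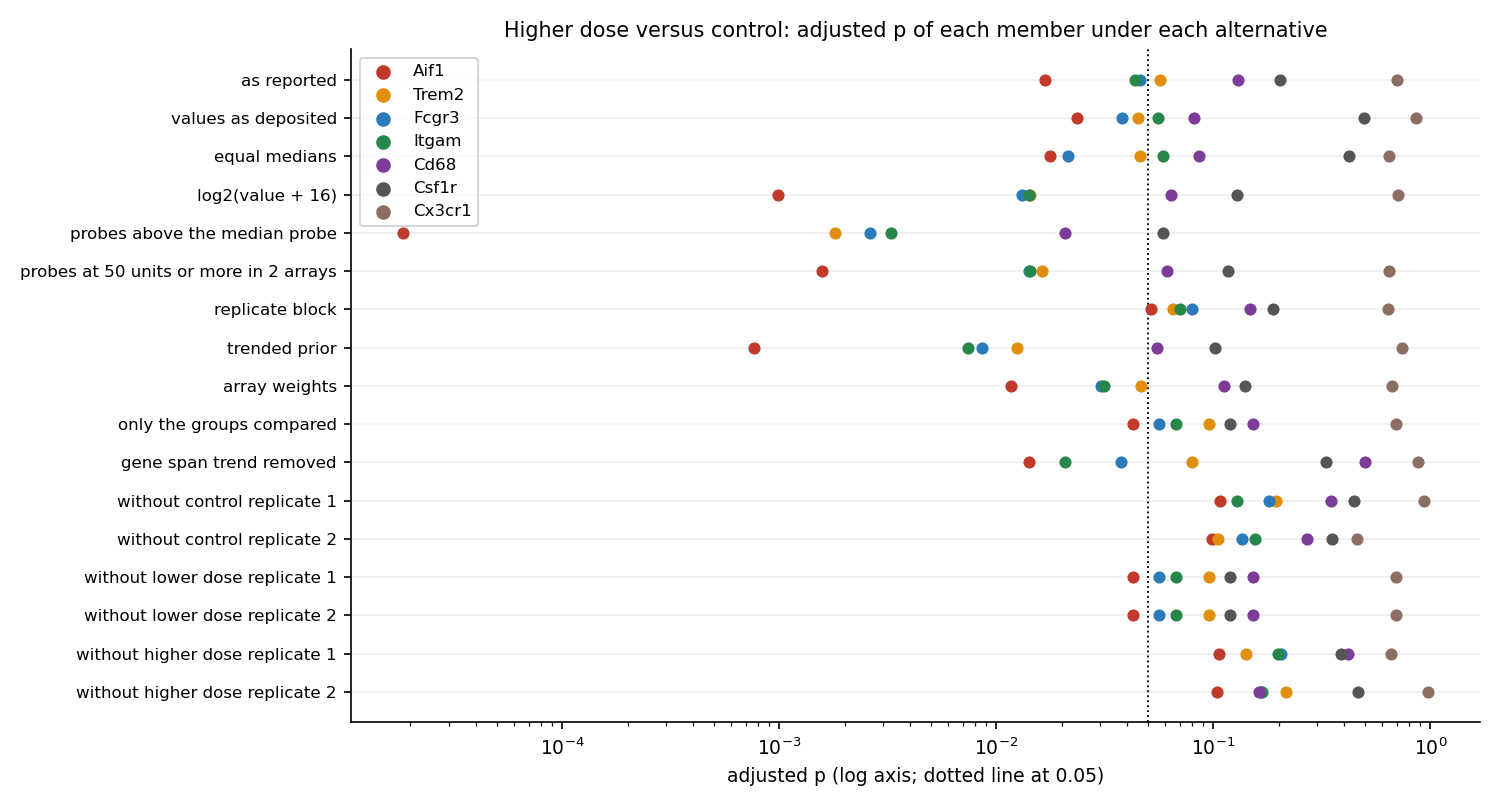
Adjusted p (x axis, log scale, dotted line at 0.05) of each of the 7 members for the higher dose against control under each alternative (rows), with 1 colour per gene. Aif1 has the smallest adjusted p in every row, down to 1.84e-05 among the probes above the median probe. Itgam, Fcgr3, Trem2 and Cd68 lie on either side of the threshold, Cd68 under it only among the probes above the median probe (0.0208).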

How the data were processed

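RNA of BV2 cells was labelled with Cy5 and read on 6 Phalanx mouse OneArray chips, per the labels' protocols. The authors deposited linear spot intensity in whole numbers, −21 to 65489, and values under 0 show that background had been subtracted. RMA is named in the submitters' processing notes, but the deposited medians differ (125 to 170 units), so the arrays were treated as not normalized. For the scanner and the background method, the sources used here give no name.

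The intensities were quantile-normalized, set to 1 where lower, and log2 was taken. From 196 to 315 probes per array lay under 1 and 10 to 39 at 65000 or above. All 6 arrays were fitted in limma 3.58.1 (R 4.3.3): a mean for each group by lmFit and eBayes, leaving 3 residual degrees of freedom. Tests were two-sided, with p adjusted by Benjamini and Hochberg's method over 26423 probes and a threshold of 0.05. The fit was checked on simulated data with independent errors, which cannot show how independent the arrays of a group are. Errors are the fit's standard errors, and intervals are at 95%. The number of arrays limits the precision. Python 3.11.15 with matplotlib 3.10.9 drew the plots.

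The platform annotation, which is old, gives 1 symbol for 20377 probes, several for 0 and none used here for 6046. Symbols were updated in a RefSeq table of GRCm38.p6, by exact match for 18213 and a unique synonym for 2126, with 38 kept. The files name no build, so no gene coordinates are given besides those of the promoter windows. A list gene is represented by its brightest probe.

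The members and the 17 lists were chosen with earlier results of these data known. Genes named are every member, the 4 of each list with the smallest p at the higher dose against control (for lists of other cell types only those that passed), and 2 genes of the most similar pattern per member. Further names, such as partners and the rest of the called genes, were added after their values were seen. Alternatives were no normalization, equal medians, log2(value + 16), 2 filters on dim probes, a fit of only the groups compared, a block on the replicate number, weights per array, a prior that follows intensity, removal of each array's trend with gene span, a threshold of 0.1, each array left out, and averaging over a gene's probes.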

Additional observations from a re-analysis of the deposited data

How the results depend on the processing

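The count of members called at the higher dose against control, 3, became 5 when only probes above the median probe were tested, 0 with the replicate number as a block, 1 with only the groups compared, and 0 to 1 with 1 array left out. Between the doses the count of 4 became 5 among the probes above the median probe, 1 with the block, 0 with only the groups compared and 0 in every fit with 1 array left out. Under the other alternatives these counts were 3 to 4. At the lower dose the count was 0 throughout. Over all probes, 2803 were called against control at the higher dose, 5524 among the brighter probes, 4762 with log2(value + 16), 5000 with a trended prior, 4873 with at least 50 units in 2 arrays, 5262 at a threshold of 0.1, 1584 with only the groups compared and 11 with the block. Between the doses, 3629 became, in the same order, 6163, 5662, 5762, 5737, 6425, 7 and 1395. The median of all probes as deposited shifted by −0.25 between the doses and 0.22 at the lower dose against control. The deviations of same-numbered arrays correlated at 0.0326, 0.313 and −0.226 between groups, so the numbers are not shown to pair the arrays. The block adds a term to the fit, so it leaves fewer residual degrees of freedom than the 3 of the full fit. The same holds for the fit of only the groups compared. How far this accounts for the lower counts was not tested.

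Changes of sign concerned small log2 values. At the lower dose they were 0.077 for Trem2, 0.054 for Aif1 and 0.115 for Csf1r on values as deposited, and −0.093 for Cd68, −0.025 for Itgam and −0.068 for Fcgr3 at equal medians. With 1 array left out, the lower-dose change ran from −0.353 to 0.206 for Trem2, −0.061 to 0.191 for Cd68, −0.047 to 0.161 for Itgam, −0.081 to 0.222 for Fcgr3, −0.276 to 0.197 for Csf1r, −0.138 to 0.216 for Cx3cr1 and −0.042 to 0.387 for Spi1. At the higher dose Cx3cr1 ran from −0.308 to 0.046 against control. Between the doses Spi1 ran from −0.033 to 0.396, and was −0.099 as deposited. With 2 arrays per group the intervals given are wide, and signal near the top of the scanner's range limits Cd68.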
